A study of Mus musculus with 9 samples.

Results

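The transcripts of 9 genes that mast cells and basophils are known for, Fcer1a, Ms4a2, Cpa3, Il4, Hdc, Mcpt8, Prss34, Cma1 and Gzmb, were followed through 9 libraries of sorted mouse stem cells. The genes were taken by symbol, and all 9 were found among the 21939 genes of the table. RNA was sequenced from long-term haematopoietic stem cells (LT-HSCs), the bone marrow cells at the root of the blood system, isolated from C57BL/6 mice by a sort for Sca1+ and cKit+ cells without lineage markers, CD34 or Flt3. The 3 groups of 3 libraries were aged+Ri (mice over 80 weeks old, cells exposed to 100 µM Rhosin, which blocks activation of the GTPase RhoA), aged (mice over 80 weeks old, no inhibitor) and young (mice aged 10 to 16 weeks, no inhibitor). Before lysis, all 3 groups were incubated for 16 h under 3% oxygen and 5% carbon dioxide in HBSS containing 10% FBS. The labels call the libraries biological replicates without giving the number of mice behind each one, and whether aged+Ri and aged libraries came from the same mice is not given, so p-values here measure the spread between these samples.

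Mast cells and basophils are granule-bearing cells that arm themselves with IgE antibody. They display the high-affinity IgE receptor, whose alpha chain (Fcer1a) binds IgE, whose beta chain (Ms4a2) amplifies the signal and whose gamma chain (Fcer1g) passes it on. When antigen cross-links the bound IgE, the cells release histamine, made by histidine decarboxylase (Hdc), together with granule proteases and cytokines such as interleukin 4 (Il4). Carboxypeptidase A3 (Cpa3) is a mast cell protease that early blood progenitors and basophils also transcribe, Cma1 is a chymase of connective-tissue mast cells, and Mcpt8 and Prss34 are proteases that mark mouse basophils. Granzyme B (Gzmb) kills target cells when released by NK and cytotoxic T cells, and Il4 is also a cytokine of type 2 helper T cells, so these 2 genes are not confined to mast cells and basophils.

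Library totals lay between 34358101 and 72503142 counts, so 3 counts in a library corresponded to between 0.041 and 0.0854 CPM (counts per 1e6 of library total, scaled with TMM, edgeR's normalisation of library size). The young libraries stood apart from the other 6, with a count for 20129 to 21213 genes, against 15117 to 16333 in aged+Ri and 15024 to 17987 in aged libraries. The Y-linked gene Ddx3y had 2577 and 6400 counts in young 2 and young 3 and at most 1 count elsewhere. Sequencing batches are named in the labels, and aged 3 and young 3 were the 2 libraries sequenced in batch 3 alone. Batch 1 held aged+Ri 1 and aged 1, batch 2 held aged+Ri 2, aged+Ri 3, aged 2 and young 2, and young 1 was sequenced in batches 1 and 3. The 13 markers of LT-HSCs summed to between 1362 and 2366 CPM in aged+Ri, 2090 and 2744 CPM in aged, and 1862 and 3337 CPM in young libraries, and each marker had counts in every group. Of the 2 surface proteins absent by the sort, Cd34 was at 8 to 34.3 CPM in aged+Ri, 27.5 to 72 CPM in aged and 7.94 to 95.6 CPM in young libraries. Flt3 was at 0.0565 to 0.702 CPM in aged+Ri, 3.37 to 4.52 CPM in aged and 1.02 to 21.8 CPM in young libraries.

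The sum of the members was low in the aged+Ri group, though single members such as Hdc were not. Their summed level was 7.13, 5.04 and 6.49 CPM in the aged+Ri libraries, 64.9, 62.1 and 286.7 CPM in the aged libraries, and 157, 53.8 and 144.6 CPM in the young libraries. All 3 aged+Ri libraries lay below all 6 others. A different member made up most of the sum in different libraries: Hdc in aged+Ri 1, Il4 in aged+Ri 2, aged 1 and young 2, and Cpa3 in aged+Ri 3, aged 2 and young 1, while Prss34 in aged 3 and Il4 in young 3 were the largest single parts at 32.3% and 31.4%. The number of members with more than 3 counts was 3, 1 and 3 in the aged+Ri libraries, 5, 6 and 8 in the aged libraries and 7, 5 and 8 in the young libraries. In RNA from a whole sorted population, fewer cells that carry a transcript and less of it per cell cannot be told apart. Sums of neutrophil and of monocyte markers were also low with the inhibitor. The neutrophil markers summed to at most 73.7 CPM in aged+Ri and at least 260.2 CPM in every other library. The monocyte markers summed to at most 146.2 CPM in aged+Ri and at least 173.9 CPM elsewhere. Of 8 monocyte markers tested, 2 (Cd68 and Cd14) were higher in aged+Ri than in aged and 6 lower. Against young, 3 were higher and 5 lower. Cd68 averaged 61.3 CPM in aged+Ri, 55.9 CPM in aged and 13.4 CPM in young libraries. Markers of B and plasma cells (71.5 to 426.2 CPM in aged+Ri, 74 to 1747 CPM in aged, 782.6 to 2687 CPM in young), of megakaryocytes (24.3 to 189.2 CPM in aged+Ri, 243.1 to 540.6 CPM in aged, 110.1 to 284.1 CPM in young) and of erythroid cells (2059 to 3013 CPM in aged+Ri, 1855 to 2816 CPM in aged, 1229 to 2554 CPM in young) overlapped with at least 1 other group. Of 9 erythroid markers tested, 6 were higher in aged+Ri than in aged and 3 lower, and against young 2 were higher and 7 lower. The globin gene Hba-a1 was at 620.2, 427.9 and 899.5 CPM in aged+Ri and 28.2, 13.9 and 2.73 CPM in aged libraries. The part of these other cells' transcripts in the members' levels was not tested.

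**Figure D1:**
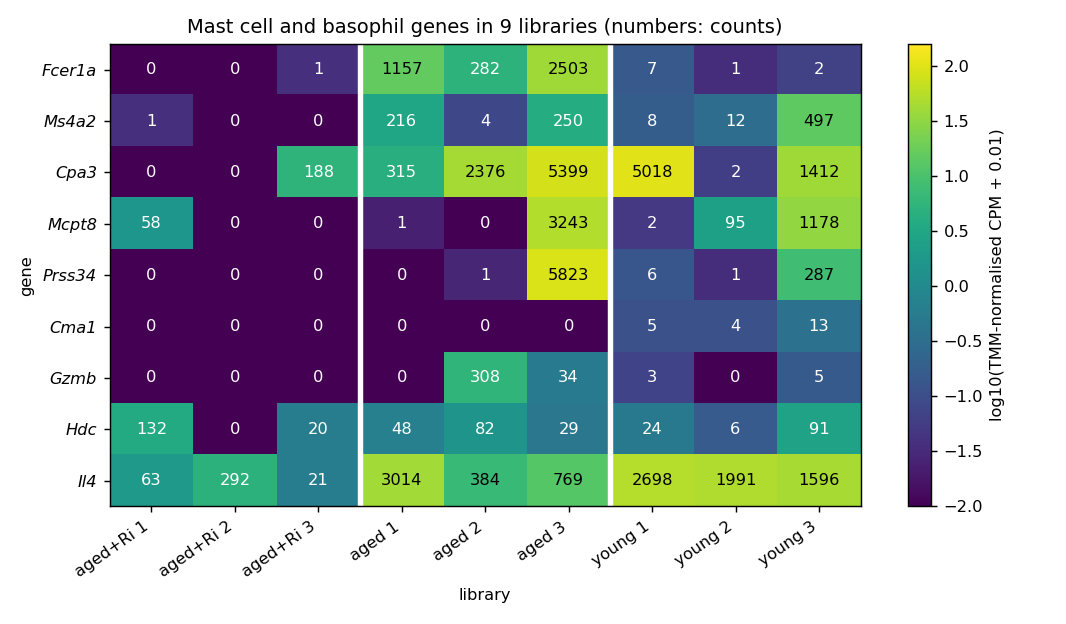
Each square is one gene (rows) in one library (columns), with its count printed and its colour giving log10 of the TMM-normalised CPM plus 0.01. The aged+Ri columns are dark in most rows, Fcer1a is bright in the 3 aged columns alone, and Mcpt8 and Prss34 are brightest in aged 3 and young 3.

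Both chains of the IgE receptor that are specific to these cells are on the list, and they did not follow the same libraries. For the chains, and for the basophil proteases Mcpt8 and Prss34, which do share their libraries, the promoters are shown from 250 bases before to 50 bases after the start of the gene. The sequences are RefSeq's for GRCm38.p6, read 5′ to 3′ on the gene's own strand. Fcer1a is at chr1:173227180-173227479 (minus strand), Ms4a2 at chr19:11623670-11623969 (minus), Mcpt8 at chr14:56085148-56085447 (minus) and Prss34 at chr17:25298144-25298443 (plus). Capitals mark matches, on either strand, to GATAA, the core of sites for GATA factors such as GATA2, and to CANNTG, the E-box bound by factors such as MITF. No match to one motif overlapped a match to the other.
Fcer1a: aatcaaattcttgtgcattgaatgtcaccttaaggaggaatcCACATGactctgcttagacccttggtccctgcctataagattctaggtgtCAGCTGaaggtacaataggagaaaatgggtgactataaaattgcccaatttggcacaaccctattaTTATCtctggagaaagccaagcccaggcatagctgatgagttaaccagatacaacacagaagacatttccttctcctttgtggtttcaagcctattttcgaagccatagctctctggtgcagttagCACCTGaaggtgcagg
Ms4a2: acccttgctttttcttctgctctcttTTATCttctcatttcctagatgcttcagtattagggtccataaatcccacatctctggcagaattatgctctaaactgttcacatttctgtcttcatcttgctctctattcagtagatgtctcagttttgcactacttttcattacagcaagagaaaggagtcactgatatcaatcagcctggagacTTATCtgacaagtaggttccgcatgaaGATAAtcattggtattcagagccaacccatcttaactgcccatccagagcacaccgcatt
Mcpt8: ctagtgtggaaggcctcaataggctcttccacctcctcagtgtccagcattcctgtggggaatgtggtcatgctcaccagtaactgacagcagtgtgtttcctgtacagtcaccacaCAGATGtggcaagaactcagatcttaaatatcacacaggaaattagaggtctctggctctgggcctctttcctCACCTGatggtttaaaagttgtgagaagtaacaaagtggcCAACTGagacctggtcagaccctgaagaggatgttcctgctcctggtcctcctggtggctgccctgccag
Prss34: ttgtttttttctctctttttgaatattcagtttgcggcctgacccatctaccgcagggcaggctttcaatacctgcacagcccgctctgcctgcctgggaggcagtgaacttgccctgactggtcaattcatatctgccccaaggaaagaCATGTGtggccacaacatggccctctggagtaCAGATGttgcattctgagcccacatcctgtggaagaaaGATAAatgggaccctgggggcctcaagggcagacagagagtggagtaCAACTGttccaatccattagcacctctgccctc

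The Fcer1a window held 1 GATAA and 3 CANNTG matches, and the Ms4a2 window 3 and 0. Mcpt8 had 0 and 3, and Prss34 had 1 and 3. Over 32851 promoters of the same length, 25.4% held GATAA and 72.3% held CANNTG. Among the other members, the windows of Cpa3 held 1 GATAA and 2 CANNTG, of Hdc 0 and 1, of Cma1 1 and 1 and of Gzmb 0 and 2, and of the 2 starts listed for Il4 1 held GATAA and both held CANNTG.

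Fcer1a was the member with the sharpest group pattern. It had 0, 0 and 1 counts in the aged+Ri libraries (0, 0 and 0.0282 CPM), 1157, 282 and 2503 counts in the aged libraries (15.8, 5.09 and 39.8 CPM), and 7, 1 and 2 counts in the young libraries (0.141, 0.0255 and 0.0569 CPM). Every aged library was far above every other library, and the aged group itself spread over several fold. The group totals of 1 count in aged+Ri and 3942 in aged gave a rate 2654-fold lower with the inhibitor (exact Poisson 95% interval 476 to 104848, counting error only). The fitted log2 change was -10.87 ± 1.72 (SE), which depends on the prior count at so low a level, and it did not pass (edgeR adjusted p = 0.0907). Against the young group, with 10 counts in all, the aged rate was 255-fold higher (interval 138.5 to 532.1), with a log2 change of 8.01 ± 1.48 (edgeR adjusted p = 0.102). Fcer1a lies on chromosome 1 at 173221284 to 173227214 (GRCm38, minus strand), and no other annotated gene overlaps it.

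The Fcer1a difference was present in each batch that held both groups. In batch 1 it was 0 CPM in aged+Ri 1 and 15.8 CPM in aged 1, and in batch 2 it averaged 0.0141 CPM in aged+Ri 2 and 3 and was 5.09 CPM in aged 2. For age, batch 2 held 5.09 CPM in aged 2 and 0.0255 CPM in young 2, and batch 3 held 39.8 CPM in aged 3 and 0.0569 CPM in young 3. The direction of both differences was the same under all 18 alternatives, while the side of the threshold changed with the tool and the genes tested. DESeq2 gave an adjusted p = 7.4e-10 for aged+Ri against aged and 5.1e-11 for aged against young, limma-voom 0.00348 and 0.0761, and edgeR without a filter 0.016 and 0.0317. Over those alternatives the adjusted p reached 0.383 for aged+Ri against aged and 0.328 for aged against young, in both cases without aged 3.

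Ms4a2, the beta chain, had 1, 0 and 0 counts in the aged+Ri libraries, 216, 4 and 250 counts in the aged libraries, and 8, 12 and 497 counts in the young libraries. In CPM these were 0.0281, 0 and 0 in aged+Ri, 2.95, 0.0722 and 3.97 in aged, and 0.162, 0.306 and 14.1 in young. The highest library was young 3, in which Fcer1a had 2 counts, and aged 2 had 282 counts of Fcer1a and 4 of Ms4a2. The aged+Ri libraries were below all others, while aged and young libraries overlapped. Ms4a2 lies on chromosome 19 at 11615523 to 11623719 (minus strand). With group totals of 1 count in aged+Ri and 470 in aged, the rate was 316.4-fold lower with the inhibitor (interval 56.5 to 12524), and against 517 counts in young it was 538.1-fold lower (96.2 to 21295). Young 3 held 96.1% of the young counts, and without it the log2 change against young was -4.41 (edgeR adjusted p = 0.243), against -8.79 with it. With all libraries neither difference passed (edgeR adjusted p = 0.41 against aged and 0.0902 against young). DESeq2 called both, with an adjusted p = 0.0109 and 0.000428. Aged against young gave a log2 change of -1.06 ± 1.78 (edgeR adjusted p = 0.816), and without young 3 it was 3.32.

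The third chain, Fcer1g, is shared with other immune receptors and was present throughout, at 69.1, 52.7 and 165.6 CPM in aged+Ri, 213.1, 437.4 and 490 CPM in aged, and 395.7, 196.8 and 508.8 CPM in young libraries. Its aged+Ri libraries were below all others (log2 change against young -1.94, edgeR adjusted p = 0.0644; against aged -1.99, edgeR adjusted p = 0.28). The list of the IgE receptor with its proximal signalling, which includes these 3 chains, had all 22 genes tested. Of these 20 were lower in aged+Ri than in aged and 0 passed, with a median log2 change of -0.86, against -0.0606 over all 15127 genes. Aged and young were level, 11 higher and 11 lower, with a median of 0.02. Against young, 2 of the 22 passed in aged+Ri, both lower, where 1.45% of all genes passed and 0.489% passed as lower. They were Lyn, the kinase that first phosphorylates the receptor, at 22.2, 29.2 and 23.8 CPM in aged+Ri and 95, 100.6 and 79.1 CPM in young libraries (edgeR adjusted p = 0.0345), and Prkcb, a protein kinase C gene, at 1.94, 8.96 and 3.92 CPM in aged+Ri and 37.2, 25 and 75.6 CPM in young libraries (edgeR adjusted p = 0.0384).

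**Figure D2:**
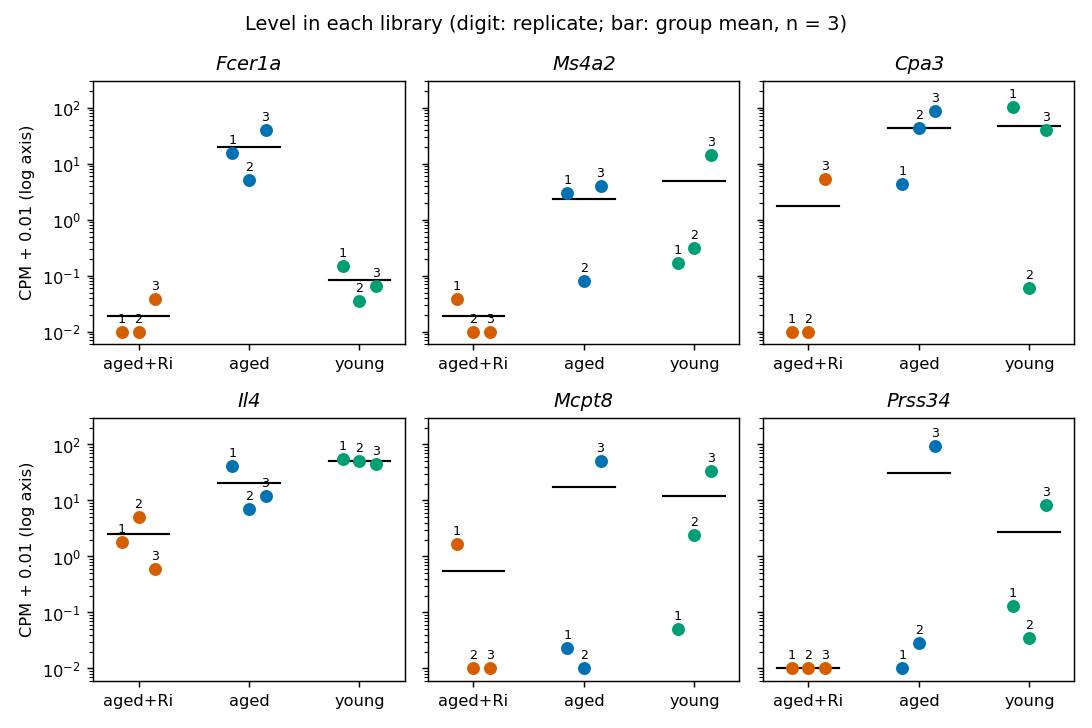
Each point is a library, labelled with its replicate number, and the y axis is TMM-normalised CPM plus 0.01 on a log scale; the bar is the group mean of 3 libraries. Fcer1a separates the aged group from both others, Il4 is lowest in aged+Ri and highest in young libraries, and Mcpt8 and Prss34 are led by replicate 3 of the aged and young groups.

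Il4 was the only member with more than 3 counts in all 9 libraries. It was also the only one that passed edgeR's test on all 9 libraries with the filter on low counts. It had 63, 292 and 21 counts in the aged+Ri libraries (1.77, 5.04 and 0.593 CPM), 3014, 384 and 769 counts in the aged libraries (41.2, 6.94 and 12.2 CPM), and 2698, 1991 and 1596 counts in the young libraries (54.5, 50.7 and 45.4 CPM). The 3 groups did not overlap: every aged+Ri library was below every aged one, and every aged library was below every young one. The means were 2.47 ± 2.31 CPM in aged+Ri, 20.1 ± 18.4 CPM in aged and 50.2 ± 4.56 CPM in young libraries (SD, n = 3 each). Il4 fell in aged+Ri relative to young, with a log2 change of -4.34 ± 0.89 (edgeR adjusted p = 0.0351). The changes for aged+Ri against aged, -3.02 ± 0.84 (edgeR adjusted p = 0.339), and for aged against young, -1.32 ± 0.79 (edgeR adjusted p = 0.418), did not pass. Il4 lies on chromosome 11 at 53602982 to 53618669 (minus strand), with no overlapping gene.

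The Il4 call for aged+Ri against young was the 1 call among the 6 members tested, where 1.45% of all genes passed and 0.489% passed as lower. It was lost without aged+Ri 1, aged+Ri 3 or young 1 (edgeR adjusted p = 0.151, 0.115 and 0.0541) and with only those 2 groups in the model (0.0711), and over the alternatives the adjusted p ranged from 3.01e-06 to 0.151. Batch 2 held libraries of both groups, with an average of 2.82 CPM in aged+Ri 2 and 3 and 50.7 CPM in young 2. The other type 2 cytokines that neighbour Il4 on chromosome 11 were near 0. Il13 was at 0 or 0.0282 CPM in aged+Ri, 0 in aged and 0.051 to 0.141 CPM in young libraries, and Il5 was at most 0.0561 CPM in aged+Ri, 0 in aged and at most 0.142 CPM in young libraries. Rad50, the DNA repair gene between Il13 and Il5, was at 26.6 to 55.1 CPM in aged+Ri, 36.5 to 84.4 CPM in aged and 3.59 to 64.3 CPM in young libraries.

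Markers of helper T cells and innate lymphoid cells, other known sources of Il4, summed to 147.4 to 223.1 CPM in aged+Ri, 118.8 to 194.4 CPM in aged and 159.9 to 440.3 CPM in young libraries over 10 genes, and all 10 had counts in each group. Their aged+Ri range overlapped that of the aged group, and their part in the Il4 result was not tested. Gata3, the factor that drives Il4 in helper T cells and is also found in stem cells, was at 11.8, 18.7 and 14.2 CPM in aged+Ri, 27.3, 22.1 and 27.2 CPM in aged, and 38.7, 54.5 and 7.68 CPM in young libraries. It did not pass in any comparison, with the lowest edgeR adjusted p at 0.286.

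Cpa3 had 0, 0 and 188 counts in the aged+Ri libraries (0, 0 and 5.31 CPM), 315, 2376 and 5399 counts in the aged libraries (4.3, 42.9 and 85.8 CPM), and 5018, 2 and 1412 counts in the young libraries (101.4, 0.051 and 40.2 CPM). Libraries of the aged and of the young group differed from each other by more than the 2 group means did. Young 2 was as low as the aged+Ri libraries, and aged+Ri 3 was above aged 1, so no pair of groups was free of overlap. The log2 changes were -4.65 ± 2.72 for aged+Ri against aged, -0.09 ± 2.32 for aged against young and -4.75 ± 2.73 for aged+Ri against young (edgeR adjusted p = 0.677, 0.99 and 0.332). Cpa3 lies on chromosome 3 at 20215620 to 20242181, and a microRNA gene, Mir7007, lies within it on the same strand.

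The basophil proteases Mcpt8 and Prss34 were carried by aged 3 and young 3, the 2 libraries sequenced in batch 3 alone. Young 1, sequenced in batches 1 and 3, was low in both genes. Mcpt8 had 58, 0 and 0 counts in the aged+Ri libraries, 1, 0 and 3243 counts in the aged libraries, and 2, 95 and 1178 counts in the young libraries. Prss34 had 0 counts in each aged+Ri library, 0, 1 and 5823 counts in the aged libraries, and 6, 1 and 287 counts in the young libraries. Aged 3 held 99.97% of the Mcpt8 and 99.98% of the Prss34 counts of its group, and young 3 held 92.4% and 97.6% of those of the young group. At 51.5 and 92.5 CPM in aged 3, against 33.5 and 8.17 CPM in young 3, the 2 genes stood in different proportions in the 2 libraries. Among the aged libraries, Fcer1a, Ms4a2 and Cpa3 were also highest in aged 3, but Il4 in aged 1, and Hdc and Gzmb in aged 2. Among the young libraries, Ms4a2, Hdc, Cma1 and Gzmb were highest in young 3, but Fcer1a, Cpa3 and Il4 in young 1.

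With 1 library deciding each group mean, nothing about age or the inhibitor passed for these proteases. For Mcpt8 the log2 change was -4.99 ± 3.41 for aged+Ri against aged (edgeR adjusted p = 0.743). Without aged 3 it was 5.77. Aged against young gave 0.52 ± 2.87 (edgeR adjusted p = 0.952), which became -10.16 without aged 3. Prss34 had too few libraries with counts to be tested. Its group total of 0 in aged+Ri against 5824 in aged puts the rate at least 1307-fold lower with the inhibitor (floor of 3 counts over the group), but 5823 of those counts came from a batch with no aged+Ri library. In batches 1 and 2, which held both groups, Prss34 had 0 and 1 counts in aged 1 and aged 2, and 0 in each aged+Ri library.

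The sums of neutrophil and of monocyte markers were also highest in aged 3 among all libraries and in young 3 among young libraries. Not every single marker was. The monocyte marker Cd68 was at 98.4 CPM in aged+Ri 3 and 58.7 CPM in aged 3. Lcn2, a neutrophil marker, was at 13.1 CPM in young 2 and 0.171 CPM in young 3. The 12 neutrophil and precursor markers summed to 73.7, 53.9 and 39.4 CPM in aged+Ri, 444.5, 260.2 and 8871 CPM in aged, and 835.1, 1295 and 3295 CPM in young libraries. All 12 had counts in every group. Over the 10 monocyte and macrophage markers the sums were 91.4, 116.4 and 146.2 CPM in aged+Ri, 240.8, 271.3 and 1910 CPM in aged, and 314, 173.9 and 539.9 CPM in young libraries, with C1qa at 0 in the aged+Ri and the aged group. Eosinophil markers did not follow them, with sums over 10 genes of 3.65, 15.4 and 3.25 CPM in aged+Ri, 0, 28.5 and 14.7 CPM in aged, and 72.8, 3.85 and 1.11 CPM in young libraries. The part of neutrophil or monocyte transcripts in the Mcpt8 and Prss34 values was not tested.

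**Figure D3:**
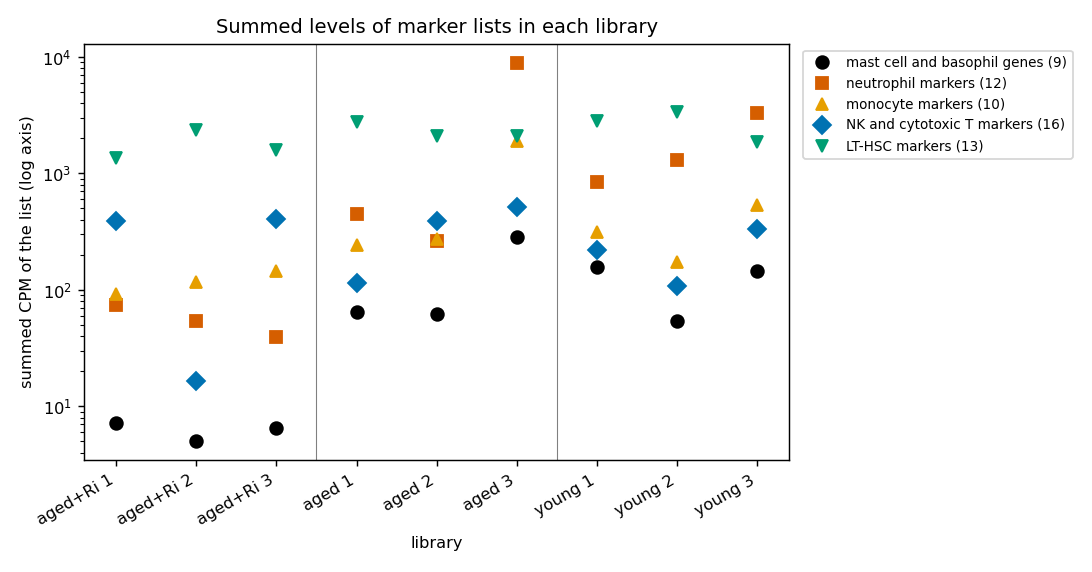
Each symbol is the summed TMM-normalised CPM (log axis) of a list of genes in one library. The 9 mast cell and basophil genes (black) sum to 5.04 to 7.13 CPM in aged+Ri and to 53.8 CPM or more in every other library, and the neutrophil markers (orange squares) reach 8871 CPM in aged 3 and 3295 CPM in young 3.

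Cma1, Mcpt8 and Gzmb lie in one cluster of chymase, mast cell protease and granzyme genes on chromosome 14. Cma1 lies at 55941451 to 55944675 and Mcpt8, with the microRNA gene Mir6949 inside it, at 56082166 to 56085273, both on the minus strand. Cma1 had 0 counts in all aged+Ri and all aged libraries and 5, 4 and 13 counts in the young libraries. Its rate was at least 7.63-fold lower in aged+Ri than in young and at least 11.3-fold lower in aged than in young (floor of 3 counts over the group), at a young level of 0.101 to 0.37 CPM. Low counts of this kind were found over many genes in the young libraries, which had counts for more genes than the others. Between Cma1 and Gzmb, 12 other genes of the cluster were measured, and 11 of them stayed at or below 0.37 CPM in every library. The exception was Ctsg, the cathepsin G gene of neutrophil and mast cell granules, at 1.82, 0.466 and 0.0282 CPM in aged+Ri, 65.1, 24.6 and 489.8 CPM in aged, and 109.6, 54.7 and 400.7 CPM in young libraries. Ctsg did not pass (edgeR adjusted p = 0.316 for aged+Ri against aged, 0.0705 against young). Mcpt8 and Ctsg, next to each other in this order, were the 2 cluster genes above 10 CPM in any library, and both were highest in aged 3 and next highest in young 3.

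Gzmb, at the other end of the cluster on chromosome 14 (56258838 to 56262260, minus strand), had 0 counts in each aged+Ri library, 0, 308 and 34 counts in the aged libraries, and 3, 0 and 5 counts in the young libraries. It was at 5.56 CPM in aged 2, which held 90.1% of the aged counts, and at most 0.54 CPM elsewhere. Its rate was at least 76.7-fold lower in aged+Ri than in aged, and it was not tested because of its low counts. Other genes of NK and cytotoxic T cells were present beside it: the 16 markers summed to 389.2, 16.7 and 404.6 CPM in aged+Ri, 114.4, 392.2 and 511.4 CPM in aged, and 219.8, 108.8 and 333.7 CPM in young libraries. Markers with more than 3 counts numbered 5, 8 and 9 in aged+Ri, 7, 12 and 11 in aged, and 16, 9 and 13 in young libraries. The sum in aged+Ri 1 thus rested on few genes. Cd8a was at 0 in the aged+Ri and Gzmk at 0 in the aged group. Of the 13 markers tested, 12 were lower in aged+Ri than in aged (median log2 change -3.47) and 0 passed. Nkg7, a granule gene of these cells, was at 2.08, 2.19 and 23.8 CPM in aged+Ri, 39.6, 107 and 164 CPM in aged, and 62.4, 58 and 126 CPM in young libraries. The part of NK and T cell transcripts in the Gzmb values was not tested.

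In the tryptase cluster on chromosome 17, Prss34 (25298394 to 25300165, plus strand) was the single gene with a level above 1 CPM in any library. The mast cell tryptases Tpsab1 and Tpsb2 were at 0 in all aged+Ri libraries, at most 0.0542 CPM in aged libraries and between 0.051 and 0.768 CPM in young libraries. Mcpt4, a chymase of connective-tissue mast cells, was at most 0.0281 CPM in aged+Ri, 0 in aged and at most 0.0606 CPM in young libraries. The tryptases and chymases that define mature mast cells were thus at or near 0 in all 9 libraries. Around Ms4a2 on chromosome 19, 10 Ms4a genes, Ms4a2 included, were measured and 8 were tested. All 8 were lower in aged+Ri than in aged without passing (median log2 change -5.43). Ms4a6c was at 0, 0 and 0.0282 CPM in aged+Ri, with 1 count in all, 1.53, 7.64 and 29.8 CPM in aged, and 36.9, 0.357 and 38.4 CPM in young libraries, and it passed as lower against young (edgeR adjusted p = 0.0257). Ms4a3, a gene of granulocyte precursors next to Ms4a2, was at 3.31, 0 and 0 CPM in aged+Ri, 13.2, 16.8 and 266.6 CPM in aged, and 65.3, 72 and 210.1 CPM in young libraries.

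**Figure D4:**
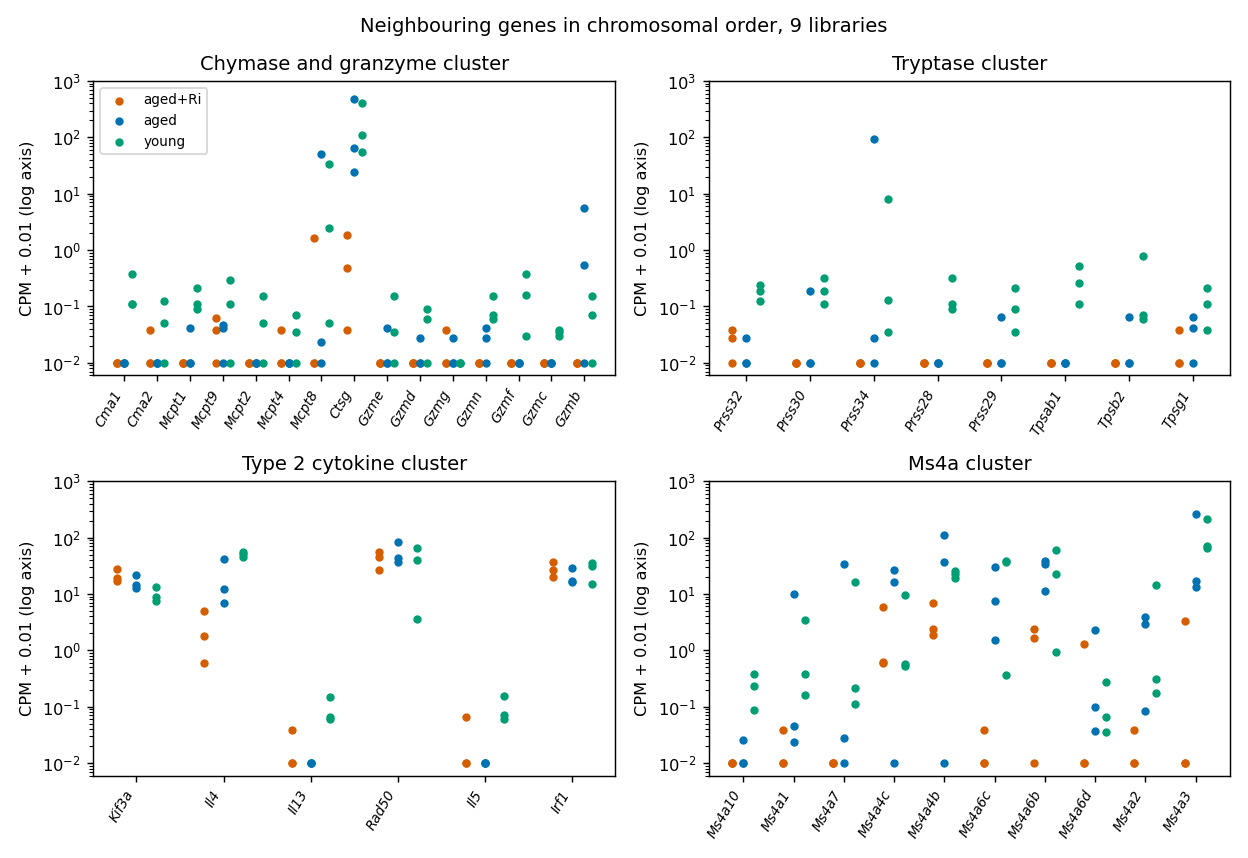
Genes of 4 clusters that hold a member are placed in chromosomal order (spacing not to scale), with TMM-normalised CPM plus 0.01 on a log axis and 3 points per group. In the chymase and granzyme cluster Mcpt8, Ctsg and Gzmb rise above 1 CPM, in the tryptase cluster Prss34 does, and in the type 2 cytokine cluster Il13 and Il5 stay below it.

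Hdc, on chromosome 2 at 126593667 to 126619299 (minus strand), was low in all groups and showed no direction. It had 132, 0 and 20 counts in the aged+Ri libraries (3.7, 0 and 0.565 CPM), 48, 82 and 29 counts in the aged libraries (0.656, 1.48 and 0.461 CPM), and 24, 6 and 91 counts in the young libraries (0.485, 0.153 and 2.59 CPM). The highest library was aged+Ri 1 and the lowest aged+Ri 2, so the aged+Ri group spanned both others. The log2 changes were 0.71 ± 1.81 for aged+Ri against aged, -0.31 ± 1.80 for aged against young and 0.40 ± 1.81 for aged+Ri against young (edgeR adjusted p = 0.971, 0.953 and 0.918). A pair of other genes of amine storage and granules was far higher than Hdc. Slc18a2, the vesicular amine transporter, was at 183.1 to 283.5 CPM in aged+Ri, 251.6 to 383.3 CPM in aged and 171.9 to 591.2 CPM in young libraries. Srgn, the granule proteoglycan serglycin, was at 590.3 to 911.1 CPM in aged+Ri, 766.4 to 1231 CPM in aged and 1192 to 1599 CPM in young libraries. Neither gene passed in any comparison.

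Per kilobase of exon, Il4 had the highest group mean of the members in aged+Ri (2.01 ± 1.88 CPM per kb, mean ± SD, n = 3) and in young (40.9 ± 3.72). Cpa3 had the highest in aged (29.2 ± 26.9). Single libraries differed from this order. Mcpt8 was above Il4 in aged+Ri 1 (1.63 against 1.44 CPM per kb). Cpa3 was above Il4 in aged+Ri 3 (3.5 against 0.483) and in young 1 (66.8 against 44.4). In the aged group Cpa3, Prss34 (25.3 ± 43.8), Fcer1a (20.3 ± 17.8), Mcpt8 (17.2 ± 29.8) and Il4 (16.4 ± 15) overlapped so widely that their order was within the spread between libraries. Below them came Gzmb (1.42 ± 2.14), Ms4a2 (0.829 ± 0.719) and Hdc (0.136 ± 0.0848). In the young group the means of Cpa3 (31.1 ± 33.6), Mcpt8 (12 ± 18.7), Prss34 (2.27 ± 3.83) and Ms4a2 (1.73 ± 2.86) were likewise within the spread between libraries, and Fcer1a averaged 0.0747 ± 0.0601.

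Over the list, 6 of the 9 members passed the filter on low counts, and Prss34, Cma1 and Gzmb did not. Fcer1a passed it only through the aged libraries, where it was high, and Ms4a2 only through aged and young libraries. Both are among the members counted below in all 3 comparisons, so those counts are description. For aged+Ri against aged, 5 of the 6 were lower and 1 was higher, where 52.8% of all 15127 genes were lower. The median log2 change was -4.82, against -0.0606 over all genes. That median lay between Cpa3 (-4.65 ± 2.72) and Mcpt8 (-4.99 ± 3.41), whose libraries overlapped between the groups. Without aged 3 the change of Mcpt8 was 5.77. With edgeR 0 of the 6 passed, where 0% of all genes did. DESeq2 called 3 members (Fcer1a, Il4 and Ms4a2) and 320 genes, limma-voom 1 member and 55 genes. At an unadjusted p under 0.05 there were 3 of the 6, all lower, where 4.89% of all genes were lower at that level. The aged+Ri and aged libraries did not overlap in 3 of the 6, all lower, where this held for 8.66% of all genes. For aged against young, 2 of the 6 were higher and 4 lower (median -0.20, against -0.13 over all genes), and 0 passed where 0.0331% of all genes did. At an unadjusted p under 0.05 there was 1 (Fcer1a, higher), where 6.09% of all genes were. DESeq2 called 1 member and 744 of all 15127 genes, and limma-voom 0 members and 18 genes. The groups did not overlap for Fcer1a (higher, where 8.6% of genes were) and Il4 (lower, where 16.1% were). For aged+Ri against young, 5 of the 6 were lower (median -4.41, against -0.24). Il4 passed, where 0.489% of all genes passed as lower. At an unadjusted p under 0.05, 2 were lower, where 14.4% of all genes were. The groups did not overlap for Il4 and Ms4a2, where 19.9% of genes were lower without overlap. The 3 comparisons share libraries, and the members share libraries with each other, so these counts are not separate pieces of evidence.

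**Figure D5:**
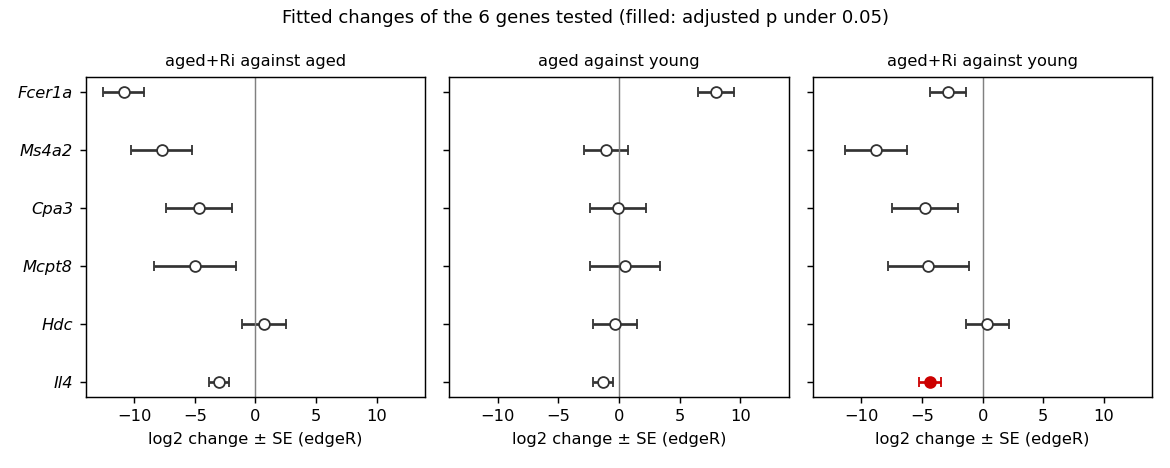
Points are the fitted log2 changes of the 6 genes tested, with bars of 1 SE, in the 3 comparisons; positive means higher in the group named first. Only Il4 in aged+Ri against young is past an adjusted p of 0.05 (filled), and the bars of Mcpt8 and Cpa3 are wide.

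Transcripts of factors, receptors and mediators that mast cells and basophils use were mostly present in every group. Of 13 transcription factors tested, 9 were lower in aged+Ri than in aged (median -0.81) and 0 passed; against young 1 passed, where 1.45% of all genes did (0.489% as lower). It was Ikzf1, a zinc-finger factor of lymphoid and myeloid cells, which fell to 26.8, 41.6 and 46.1 CPM in aged+Ri, against 150.9, 92.5 and 157.5 CPM in young libraries (edgeR adjusted p = 0.0418). Nfil3, a leucine-zipper factor, was at 107.5, 48.4 and 61.8 CPM in aged+Ri, 42.4, 32 and 14.1 CPM in aged, and 20.1, 5.12 and 4.87 CPM in young libraries (edgeR adjusted p = 0.0541 for aged+Ri against young). Of 13 growth factor and cytokine receptors, 10 were lower in aged+Ri than in aged (median -0.38) and 0 passed in any comparison. Kit, the stem cell factor receptor that mast cells share with stem cells, was at 87.3, 325.2 and 166 CPM in aged+Ri, 448.1, 406.9 and 429 CPM in aged, and 650.8, 654.3 and 263.6 CPM in young libraries. Csf2rb, the shared beta chain of the interleukin 3 and interleukin 5 receptors, was at 86.3, 225 and 146.7 CPM in aged+Ri, 85.9, 70.3 and 83.2 CPM in aged, and 166.9, 148.1 and 201.3 CPM in young libraries. Its aged+Ri libraries lay above the aged ones without passing (edgeR adjusted p = 0.465).

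Among 12 other basophil genes and cytokines tested, 10 were lower in aged+Ri than in aged, with a median of -1.10 and 0 passing in any comparison. The chemokine Ccl9 was at 22.3, 68.8 and 68.6 CPM in aged+Ri, 245.9, 163.3 and 170 CPM in aged, and 125.6, 119.4 and 276.3 CPM in young libraries. Ccl3, a chemokine of activated myeloid cells and basophils, was at 42.6, 69.9 and 163.6 CPM in aged+Ri, 378.1, 271.9 and 113.8 CPM in aged, and 231.8, 242.4 and 518.6 CPM in young libraries. Ccl9 libraries of the aged+Ri group were below all others, and those of Ccl3 overlapped the aged group. Of 8 lipid mediator enzymes 5 were lower and 3 higher in aged+Ri than in aged (median -0.33) and 0 passed. Ptgs2, the inducible cyclooxygenase, was at 14.1, 4.27 and 17.5 CPM in aged+Ri, 0.137, 0.0181 and 0.334 CPM in aged, and 0.222, 2.22 and 0.171 CPM in young libraries (edgeR adjusted p = 0.335 for aged+Ri against aged). Its aged+Ri libraries were above all others. Alox5ap, which presents arachidonic acid to 5-lipoxygenase, was at 49.5, 199 and 159.8 CPM in aged+Ri, 270.6, 335.4 and 381.5 CPM in aged, and 333.2, 313 and 141 CPM in young libraries.

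Genes whose level followed the mean of the members' log2(CPM + 1) most closely over the 9 libraries were sought among 10372 tested genes with at least 5 CPM in a group. The 10 highest Pearson correlations were between 0.9 and 0.947, given as a description over 9 libraries that share groups and batches. They belonged to Pafah1b3, Prtn3, Gpx1, Msrb1, Cmtm7, Fcgr3, H4c4, Elane, Tyrobp and Ptgr1. Prtn3 and Elane encode proteases of neutrophil granules. Elane was at 6.76, 0 and 0.0565 CPM in aged+Ri, 108, 112.5 and 4233 CPM in aged, and 175.9, 220.4 and 974.4 CPM in young libraries. Fcgr3, an IgG receptor that signals through Fcer1g, was at 5.59, 0.0173 and 0.367 CPM in aged+Ri, 19.8, 13.3 and 257.3 CPM in aged, and 11.1, 24.9 and 151.8 CPM in young libraries. In both genes aged 3 was highest and young 3 next, as in Mcpt8 and Prss34.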

How the data were processed

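Per the labels, cDNA was prepared from sorted LT-HSCs by SMART-Seq v4 and made into libraries by Nextera XT. The deposited table holds estimated counts per gene symbol: between 71.6% and 80.9% of a library's entries were whole numbers (tolerance 0.005). The submitters' processing notes name STAR 2.7.0, featureCounts, SAMtools 1.14, cutadapt 1.18 and R 4.2.0, and the build GRCm38; the featureCounts version, annotation and strand setting are not given in the sources used here. Counts were rounded. edgeR 4.0.16 (R 4.3.3; filterByExpr, TMM, robust quasi-likelihood F-test, two-sided) was fitted to all 9 libraries with group means and 6 residual degrees of freedom, which left 15127 genes, with Benjamini-Hochberg adjustment over them and a threshold of 0.05. The fit was also run on simulated counts, drawn without batch effects, as a check of the code only. Log2 changes come with SE. Ratios of group totals have exact Poisson 95% intervals, or a floor of 3 counts over the group; both cover counting error only.

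The members and lists were chosen with earlier results of these data known. Named from each list were up to 4 genes with the smallest p and at least 5 CPM in a group, and all genes neighbouring members. Chymase, granzyme and tryptase genes are related families, so reads may be split among the closest relatives, which was not tested. Gene positions and exon lengths are from GENCODE M21 (GRCm38). Library pairs of a group differed beyond sampling noise. Alternatives were DESeq2 1.42.0 and its size factors, limma-voom (limma 3.58.1), other filters, other model terms and each library left out.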

Additional observations from a re-analysis of the deposited data

How the results depend on the processing

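Of 311 log2 changes of the 6 members tested under 18 alternatives, 277 kept their direction. With edgeR 0, 5 and 219 genes passed for aged+Ri against aged, aged against young and aged+Ri against young. In the same order DESeq2 called 320, 744 and 1862 genes and 3, 1 and 2 members. With limma-voom 55, 18 and 644 genes passed. Among them was 1 member for aged+Ri against aged and 1 for aged+Ri against young (Il4, limma-voom adjusted p = 0.0235). Without a filter 11 and 20 genes passed in the first 2 comparisons, with 1 member in each. With only the 2 groups compared there were 2, 1 and 57 genes, with 1 member for aged+Ri against aged and 0 for aged+Ri against young. Batch as a covariate gave 5 genes for aged+Ri against aged. Leaving out 1 library at a time gave 0 to 6, 2 to 80 and 18 to 532 genes, and 0 to 1, 0 to 0 and 0 to 1 members. Without aged 3 and young 3, an alternative chosen after their counts were seen, 38 genes passed for aged against young and 483 for aged+Ri against young. Scaled by the raw library total, Il4 in young 2 was 55.3 CPM, against 50.7 CPM with TMM.

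The replicate block gave 2 genes for aged+Ri against aged. Deviations of same-numbered libraries correlated at -0.0718 to 0.139, and 4 libraries correlated best with their own number, so the numbers were not taken to pair the libraries.

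Directions that turned were all of members that had not passed; the cause was not tested. For aged+Ri against aged, Hdc was -1.12 with limma-voom, -0.80 with the replicate block, -0.10 with batch and -1.63 to 1.34 with 1 library left out. Mcpt8 was 0.57 with the block, 1.16 with batch, -12.79 to 5.77 with 1 library left out and 5.79 without aged 3 and young 3. For aged against young, Hdc was 0.58 with limma-voom, 0.72 with the block, 0.86 with batch, -0.91 to 1.44 with 1 library left out and 1.80 without aged 3 and young 3. Cpa3 was 1.33 with limma-voom, 0.082 without a filter, 0.77 with the block and -0.83 to 1.2 with 1 library left out. Mcpt8 was -2.23 with limma-voom, -2.74 with the block, -4.52 with batch, -10.16 to 3.81 with 1 library left out and -6.92 without aged 3 and young 3. Ms4a2 was 0.57 with limma-voom, -1.65 to 3.32 with 1 library left out and 2.73 without aged 3 and young 3. For aged+Ri against young, Hdc was -0.54 with limma-voom, -0.078 with the block and -1.90 to 2.16 with 1 library left out.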
